A study of Rattus norvegicus with 26 samples.

Results

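Chaperones are proteins that help others to fold, keep damaged proteins from clumping and pass the hopeless ones on for destruction. The transcripts described here are those of 40 heat shock and endoplasmic reticulum (ER) chaperones and stress factors, taken by gene symbol from a table of 34034 genes of rat soleus, and all 40 were found and passed the filter on low counts. They fall into 12 genes of the cytosolic machinery, 7 small heat shock proteins, 3 mitochondrial chaperones, 14 ER chaperones and folding factors, and 4 transcription factors of ER stress. Soleus is a slow postural muscle of the calf, which works for much of the day and is rich in small heat shock proteins.

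Soleus came from aged females of lines selected over generations for high (HCR) or low (LCR) running capacity, here at generation 44. There were 5 HCR and 5 LCR rats with voluntary running, kept in pairs with a wheel in the cage for over 5 months, and 8 HCR and 8 LCR rats that stayed sedentary, with no wheel. The labels name no transgene and no agent in any group. Messenger RNA was counted from reads near transcript 3' ends. Each library was treated as 1 rat, and cage mates were counted as separate rats because the labels give no cage, so part of a running difference may lie between cages. The labels call the runners a separate cohort, so cohort and running cannot be told apart.

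Libraries held 1099961 to 2523942 counts, and 10064 genes were tested. The markers of slow fibres were high in all libraries, with summed levels of 26902 to 53196 CPM, that is, counts of a gene scaled to a common total per library. For 2 runners, HCR running 5 and LCR running 5, the title opens with the opposite line from the genotype. In 59 genes whose sedentary HCR and LCR levels did not overlap, HCR running 5 was nearer to sedentary HCR in 41 and LCR running 5 nearer to sedentary LCR in 48, as their genotype labels have it. HCR running 4 was the least clear of the HCR runners, nearer to sedentary HCR in 35 of these 59 genes, against 41 to 45 in the other 4. In muscle as a whole, less RNA per cell and fewer cells that express a gene cannot be told apart.

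Heat shock genes are switched on by HSF1, which binds arrays of short inverted repeats called heat shock elements. The ER has its own system, the unfolded protein response, in which the sensors IRE1, PERK and ATF6 raise chaperone transcripts when unfolded proteins build up in the ER. ATF6 acts through the ER stress element, and PERK through the factors ATF4 and CHOP (Ddit3). In muscle the small heat shock proteins bind to sarcomeres and the cytoskeleton, and the Bag3 and Hspb8 pair delivers damaged filament proteins to autophagy.

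The letters of these elements were searched in the promoters. RefSeq promoter windows of the GRCr8 assembly, 250 bases before to 50 after the gene start, were at hand for 31 of the 40 members, with 2 windows for Hyou1. The ER stress element, searched on both strands as CCAAT and CCACG with 9 bases between, was in 22 of 33469 promoters (0.0657%). Of these 22, 7 belong to members, namely Calr, Canx, Creld2, Dnajc3, Hsp90b1, Hspa5 and Xbp1. The stretch upstream of the start is shown for Hspa5 (chr3:38452953-38453015, plus strand) and Hsp90b1 (chr7:23012294-23012489, minus strand), the classic targets of the element, with the matches in capitals. The Hsp90b1 window holds 2 matches on opposite strands, the second as its reverse complement.
Hspa5: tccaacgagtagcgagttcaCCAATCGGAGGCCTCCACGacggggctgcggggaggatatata
Hsp90b1: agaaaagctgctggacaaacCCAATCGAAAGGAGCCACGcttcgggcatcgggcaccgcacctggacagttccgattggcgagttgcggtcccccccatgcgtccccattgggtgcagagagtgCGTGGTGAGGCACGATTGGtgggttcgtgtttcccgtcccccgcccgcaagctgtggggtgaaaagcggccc

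A heat shock element of 3 alternating units was in 267 promoters (0.798%), among them those of Dnaja1, Hspa8, Hspd1, Hspe1 and Hsph1. The looser form of 2 units, GAANNTTC or TTCNNGAA, was in 5305 promoters (15.9%) and in those of 11 of the 31 members, the same 5 included. The sequences of Hspe1 (chr9:64084242-64084326, plus strand) and Hsph1 (chr12:10427312-10427367, plus strand) are shown because these genes are described further on, with the 3-unit matches in capitals. Hspe1 and Hspd1 are neighbours on opposite strands with 289 bases between their starts, and their windows share 211 of 300 bases, the heat shock element included.
Hspe1: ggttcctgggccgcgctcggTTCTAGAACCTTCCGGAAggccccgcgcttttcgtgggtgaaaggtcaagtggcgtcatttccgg
Hsph1: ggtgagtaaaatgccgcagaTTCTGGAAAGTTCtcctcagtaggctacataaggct

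The UPR element TGACGTGG was in 199 promoters (0.595%), among them those of Bag3 and Hyou1, and the ATF4 and CHOP element TGATGCAA in 266 (0.795%), among them that of Herpud1. A match is a description of the letters and says nothing of binding.

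The first comparison asked what long-term wheel running goes with in HCR soleus. The ER chaperones lay lower in HCR running rats than in HCR sedentary rats as a group, with 13 of 14 fold changes below 0 and a median log2 fold change of -0.23. Without the 2 libraries with conflicting titles 12 of 14 were below 0 (median -0.20), and with them placed by their titles 13 of 14 (median -0.19). The single genes did not pass the test. Across the 40 members 0 passed at an adjusted p of 0.05 (edgeR quasi-likelihood test, adjusted over 10064 genes), where 0.0994% of all genes did. DESeq2 called 1 member, Hspa5, among 79 genes called in all. Limma voom with quality weights called 0 members and 10 genes in all. At an unadjusted p under 0.05 there were 6 members, all lower in runners and 5 of them in the ER, against a background of 12.5% of all genes. The median over all 40 members was -0.11, with 26 of 40 (65.0%) below 0, where the median of all genes was -0.00 with 50.9% below 0. Members whose groups did not overlap numbered 0, against 0.596% of all genes.

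Hspa5 encodes BiP, the HSP70 of the ER and the brake on the stress sensors. It stood at 318, 444, 309, 431 and 332 CPM in HCR running rats, against a lowest, median and highest value of 415, 487 and 579.9 CPM in HCR sedentary rats. All 5 runners were below the sedentary median and 3 below the lowest sedentary rat, while the other 2 lay inside the sedentary range. The log2 fold change was -0.44 (SE 0.11, adjusted p = 0.0857, edgeR quasi-likelihood test). It was -0.41 without the 2 libraries with conflicting titles (adjusted p = 0.172) and -0.50 without HCR running 4 (adjusted p = 0.0573). Without HCR sedentary 4 it passed, at -0.47 (adjusted p = 0.0419). It was furthest from passing at -0.38 without HCR running 3 (adjusted p = 0.336) and, with those 2 libraries placed by their titles, at -0.29 (adjusted p = 0.359).

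Pdia3, a disulfide isomerase that works with calnexin and calreticulin on glycoproteins, had 119, 116, 76.6, 114 and 101 CPM in HCR running rats. In HCR sedentary rats it ran from 113 over a median of 143 to 152 CPM. All 5 runners were below the sedentary median, and the ranges overlapped at 113 to 119 CPM. On the log2 scale Pdia3 differed by -0.37 (SE 0.11, adjusted p = 0.125, edgeR quasi-likelihood test). It differed by -0.28 without HCR running 3, the lowest runner (adjusted p = 0.443), and by -0.30 with the 2 libraries placed by their titles (adjusted p = 0.272).

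Canx, the membrane-bound lectin chaperone calnexin, had 216, 228, 197, 219 and 172 CPM in HCR running rats and 215, 242 and 282 CPM as lowest, median and highest in HCR sedentary rats. Again all 5 runners were below the sedentary median and 2 below its lowest rat. On the log2 scale the difference was -0.24 (SE 0.09, adjusted p = 0.229, edgeR quasi-likelihood test). Canx differed by -0.22 without HCR running 3 (adjusted p = 0.514) and by -0.17 with the 2 libraries placed by their titles (adjusted p = 0.515).

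Manf, a small secreted protein that binds BiP and protects cells under ER stress, was scattered in HCR running rats, at 13.5, 8.14, 4.96, 17.4 and 5.11 CPM. HCR sedentary rats had 8.64, 15.6 and 23.6 CPM as lowest, median and highest. Of the runners, 3 lay below every sedentary rat and 1 above the sedentary median. In log2 units Manf differed by -0.70 (SE 0.24, adjusted p = 0.203, edgeR quasi-likelihood test), and -0.94 without HCR running 4 (adjusted p = 0.102). The difference was smaller without HCR running 3, at -0.53 (adjusted p = 0.553). It was -0.58 without the 2 libraries with conflicting titles (adjusted p = 0.421) and -0.51 with them placed by their titles (adjusted p = 0.491).

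The remaining ER members were closer to 0 or rested on few counts. Sdf2l1, part of the BiP cochaperone complex, had the largest fold change (-0.72, SE 0.32) at only 3.84 ± 1.82 CPM in HCR running rats (SD, n = 5) and 6.26 ± 2.38 CPM in HCR sedentary rats (n = 8). Hyou1, the large HSP70 relative that exchanges nucleotide on BiP, stood at -0.34, Hsp90b1 (GRP94, the HSP90 of the ER) at -0.23 and the cochaperone Dnajb9 at -0.23. Creld2 stood at -0.18, Pdia6 at -0.16, the lectin chaperone calreticulin (Calr) at -0.09, Dnajc3 at -0.06 and Pdia4 at -0.04. Herpud1, a helper of ER-associated degradation, was the only ER member not below 0 (0.00), at 445 ± 11.6 CPM in HCR running rats and 445 ± 60.2 CPM in HCR sedentary rats. Summed over the 14 ER members, the level was 1834 ± 137 CPM in HCR running rats (range 1673 to 1989) and 2119 ± 132 CPM in HCR sedentary rats (range 1918 to 2305), so the ranges overlapped a little. The 7 members with an ER stress element in the promoter window were all below 0 in this comparison, with a median of -0.23. Of the 14 ER members 13 were below 0, also with a median of -0.23. All of the 7 except Xbp1 are among these 14, and Pdia3, Pdia6 and Manf had no window. The 2 sets are thus not separate, and whether members with the element differ from the rest was not tested. The largest falls in the ER were those of Sdf2l1, whose window held no match, and Manf, for which no window was at hand.

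**Figure D1:**
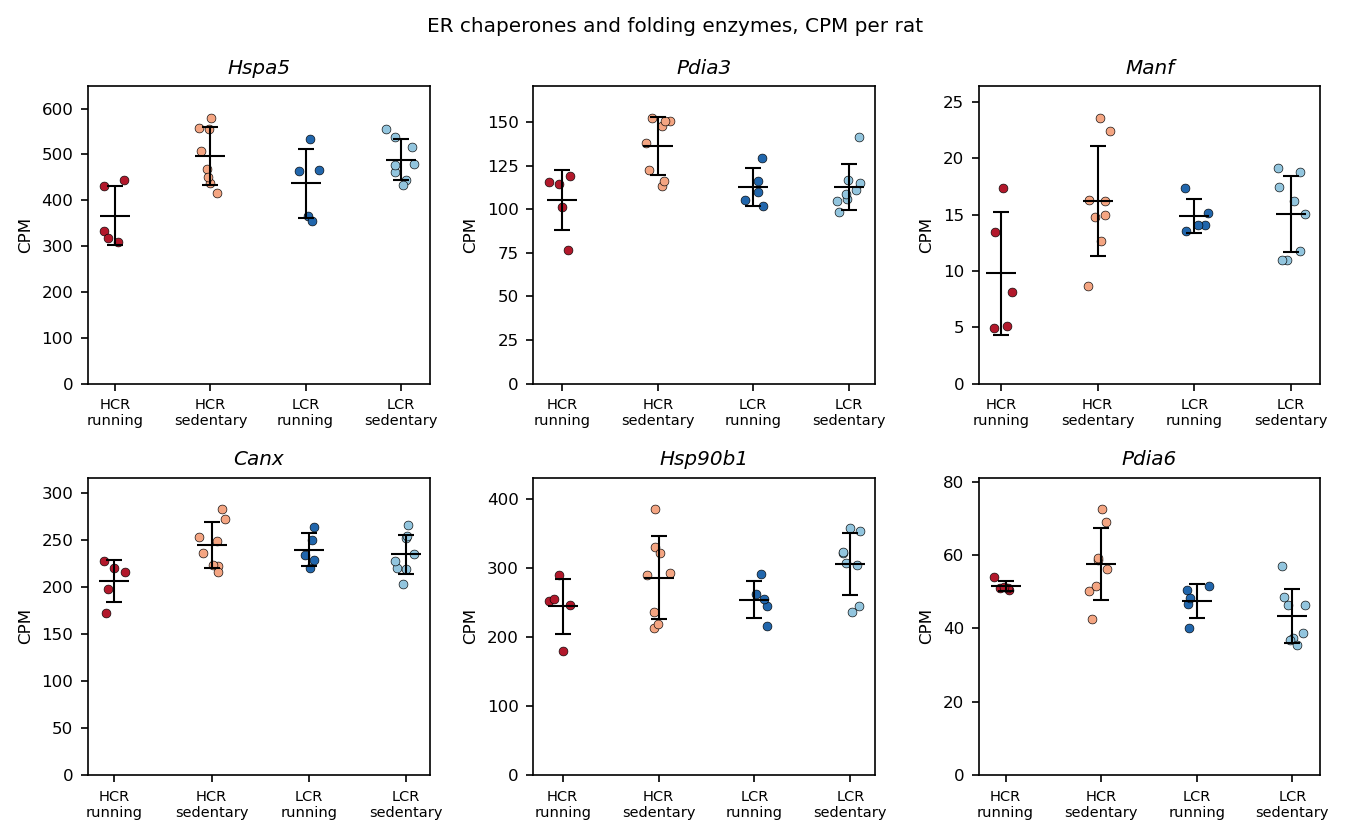
CPM (y axis, from 0) of 6 ER members in each rat, with groups along the x axis; points are rats, and bars are the mean and SD of 5 running or 8 sedentary rats. In HCR the running rats of Hspa5, Pdia3 and Canx all sit below the sedentary median, while Pdia6 stands highest in HCR sedentary rats.

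The ER stress factors showed no common direction in HCR. Xbp1, whose spliced form drives chaperone genes, stood at -0.25, Ddit3 (CHOP) at -0.18, Atf6 at 0.01 and Atf4 at 0.15, with adjusted p from 0.595 to 0.991 (edgeR quasi-likelihood test). Splicing of Xbp1 cannot be read from counts at the 3' end.

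Outside the ER, HCR running rats showed small differences in both directions. The 3 mitochondrial chaperones were above 0 with a median of 0.12, and 7 of 12 cytosolic members were above 0 with a median of 0.03. In the cytosol Hsf1, the heat shock factor itself, had the largest positive value (0.32, SE 0.24), which was drawn by HCR running 5 at 20.4 CPM, against 7.27 to 9.94 CPM in the other 4 runners. Hspa1b, an inducible HSP70, had the lowest (-0.57, SE 0.29), at 23.4, 15.7, 7.09, 21.5 and 9.20 CPM in HCR running rats and 13.9, 22.2 and 40.4 CPM as lowest, median and highest in HCR sedentary rats. Hspa1a and Hspa1b are near-identical copies, so reads may have been split between them and both are uncertain.

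The small heat shock proteins were below 0 in 6 of 7 members (median -0.07). Cryab, αB-crystallin, which guards desmin and titin, had the smallest p of them. It stood at 1606, 1644, 1082, 1633 and 1724 CPM in HCR running rats and at 1368, 1988 and 2090.2 CPM as lowest, median and highest in HCR sedentary rats. All 5 runners were below the sedentary median, but 4 lay inside the sedentary range. Its log2 fold change was -0.30 (SE 0.14, adjusted p = 0.366, edgeR quasi-likelihood test).

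Marker lists of fibres and other cells gave these values in the same comparison. Of 9 slow fibre markers tested, 9 were above 0 in HCR running against HCR sedentary rats, and the summed level was 37513 to 52587 CPM in HCR running rats and 26902 to 53196 CPM in HCR sedentary rats. Of 9 fast fibre markers, 7 were below 0, with sums of 2429 to 4944 CPM in HCR running rats and 2357 to 8872 CPM in HCR sedentary rats. Immediate early genes, which respond within minutes to handling, were below 0 in 6 of 7, with sums of 421 to 980.1 CPM in HCR running rats and 681 to 1318 CPM in HCR sedentary rats. Adipocyte markers were below 0 in 3 of 3, with sums of 87.2 to 151 CPM in HCR running rats and 122 to 204 CPM in HCR sedentary rats. Endothelial markers were below 0 in 6 of 6, with sums of 185 to 231 CPM in HCR running rats and 212 to 297 CPM in HCR sedentary rats. Schwann cell markers were below 0 in 5 of 5, with sums of 122 to 236 CPM in HCR running rats and 181 to 340.0 CPM in HCR sedentary rats. Fibroblast markers were below 0 in 6 of 7, with sums of 459.6 to 919 CPM in HCR running rats and 542 to 998 CPM in HCR sedentary rats. No single marker of these 7 lists was called (edgeR), none was at 0 in every rat of a group, and their part in the chaperone values was not tested.

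The same question in LCR gave smaller ER values. None of the 40 members passed (edgeR quasi-likelihood test), and none did with DESeq2 or voom. The share of all genes called was likewise 0%. At an unadjusted p under 0.05 there were 4 members, 1 higher and 3 lower, against 6.08% of all genes. The member median was -0.08 with 29 of 40 (72.5%) below 0, where all genes had a median of 0.00 with 49.7% below 0. Groups that did not overlap were found in 0 members and in 0.268% of all genes. By compartment the cytosolic members lay lowest, with 10 of 12 below 0 and a median of -0.12, against -0.04 for the ER (-0.12 with the 2 libraries placed by their titles). In the same comparison immediate early genes were below 0 in 7 of 7, with sums of 627 to 874 CPM in LCR running rats and 617 to 1744 CPM in LCR sedentary rats. Pericyte and smooth muscle markers were below 0 in 4 of 4, with sums of 132 to 208 CPM in LCR running rats and 131 to 315 CPM in LCR sedentary rats. Endothelial markers were below 0 in 5 of 6, with sums of 188 to 268 CPM in LCR running rats and 194 to 290.2 CPM in LCR sedentary rats. Macrophage markers were above 0 in 8 of 9, with sums of 276 to 408 CPM in LCR running rats and 227 to 361 CPM in LCR sedentary rats. No marker of these 4 lists was called (edgeR), and their part in the chaperone values was not tested.

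Hspe1, which encodes HSP10, the lid of the mitochondrial HSP60 chamber, had the smallest p. It stood at 116, 94.9, 78.2, 92.9 and 91.5 CPM in LCR running rats and 54.3, 71.9 and 95.7 CPM as lowest, median and highest in LCR sedentary rats. All 5 runners were above the sedentary median and 1 above its highest rat. Hspe1 differed by 0.34 on the log2 scale (SE 0.12, adjusted p = 0.706, edgeR quasi-likelihood test).

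Hsph1 (HSP110), which recharges HSP70 and helps to dissolve aggregates, ran the other way. It had 101, 93.9, 103, 98.6 and 113 CPM in LCR running rats and 101, 120.0 and 137 CPM as lowest, median and highest in LCR sedentary rats. All 5 runners were below the sedentary median, a difference of -0.22 in log2 (SE 0.09, adjusted p = 0.715, edgeR quasi-likelihood test). HCR running rats had 116, 109.6, 116, 87.0 and 141 CPM.

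Hsp90aa1, the stress-inducible HSP90 of the cytosol, had 201, 209, 284, 251 and 228 CPM in LCR running rats and 233, 267 and 386 CPM as lowest, median and highest in LCR sedentary rats. Of the runners, 3 were below every sedentary rat and 1 was above the sedentary median. The log2 fold change was -0.25 (SE 0.11, adjusted p = 0.77, edgeR quasi-likelihood test). In HCR it had 208, 289.7, 228, 239 and 240.2 CPM in running rats and 207, 286 and 324 CPM as lowest, median and highest in sedentary rats.

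Hsp90b1, its ER relative, had 216, 262, 291, 245 and 255 CPM in LCR running rats and 236, 315 and 358 CPM as lowest, median and highest in LCR sedentary rats. All 5 runners were below the sedentary median and 1 below its lowest rat, a log2 difference of -0.27 (SE 0.13, adjusted p = 0.795, edgeR quasi-likelihood test). In HCR this gene had 179.6, 255, 246, 289 and 252 CPM in running rats and 212, 291 and 385 CPM as lowest, median and highest in sedentary rats, again with all 5 runners below the sedentary median.

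Hspa5 in LCR had 366, 355, 466, 464 and 535 CPM in running rats and 433, 478 and 556 CPM as lowest, median and highest in sedentary rats. The groups overlapped widely, with 2 runners below every sedentary rat and 1 above the sedentary median (log2 fold change -0.16). The summed ER level was 1980.1 ± 103 CPM in LCR running rats and 2096 ± 145 CPM in LCR sedentary rats. Of the 7 members with an ER stress element, 4 were below 0, and of the 14 ER members, which include all of these except Xbp1, 9 were.

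Averaged over the lines, running went with lower chaperone values in most members and with no call. The count was 0 of 40 (edgeR quasi-likelihood test), where 0.378% of all genes passed, and 9 members, 1 higher and 8 lower, had an unadjusted p under 0.05, against 12.7% of all genes. DESeq2 and voom each called 1 member, Hspa5, among 80 and 50 genes called in all. Hspa5 stood at -0.30 (SE 0.08, adjusted p = 0.0691, edgeR quasi-likelihood test). Of 26 refits that each left out 1 rat, 4 passed for Hspa5. The rat left out was LCR running 5 (-0.34, adjusted p = 0.0311, edgeR), HCR sedentary 4, HCR running 2 or HCR running 4. Hspa5 was furthest from passing without HCR running 3, at -0.27 (adjusted p = 0.179, edgeR). Dropping both runners whose title and genotype disagree gave -0.33 (adjusted p = 0.0616, edgeR). Grouping these runners by title gave -0.29 (adjusted p = 0.112, edgeR), and neither fit passed. Hsp90aa1 stood at -0.23 (SE 0.08, adjusted p = 0.178, edgeR) and Hspe1 at 0.25 (SE 0.09, adjusted p = 0.193, edgeR). Slow fibre markers were above 0 in 8 of 9, with Tnnc1 called (0.40, adjusted p = 0.0425, edgeR). Immediate early genes were below 0 in 7 of 7, with Dusp1 called (-0.70, adjusted p = 0.0446, edgeR). Fast fibre markers were below 0 in 8 of 9 and endothelial markers in 6 of 6, with 0 called. The part of these markers in the averaged chaperone values was not tested.

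Cryab depended on single libraries, among them LCR running 5, whose title and genotype disagree. It had 1352, 1526, 1327, 1829.6 and 2788 CPM in LCR running rats and 1823, 2059 and 2459.5 CPM as lowest, median and highest in LCR sedentary rats. LCR running 5 was above every sedentary rat, while 3 of the other 4 runners were below every one. The average over the lines was -0.27 (SE 0.10, adjusted p = 0.207, edgeR quasi-likelihood test). Without LCR running 5 it was -0.38 and passed (adjusted p = 0.0204), and without both libraries with conflicting titles it was -0.41 (adjusted p = 0.0173). Of 26 refits without a single rat, 1 passed. The average shrank to -0.22 without HCR running 3 (adjusted p = 0.396, edgeR), the lowest HCR runner in Cryab. With the 2 libraries placed by their titles it was -0.27 (adjusted p = 0.225, edgeR).

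**Figure D2:**
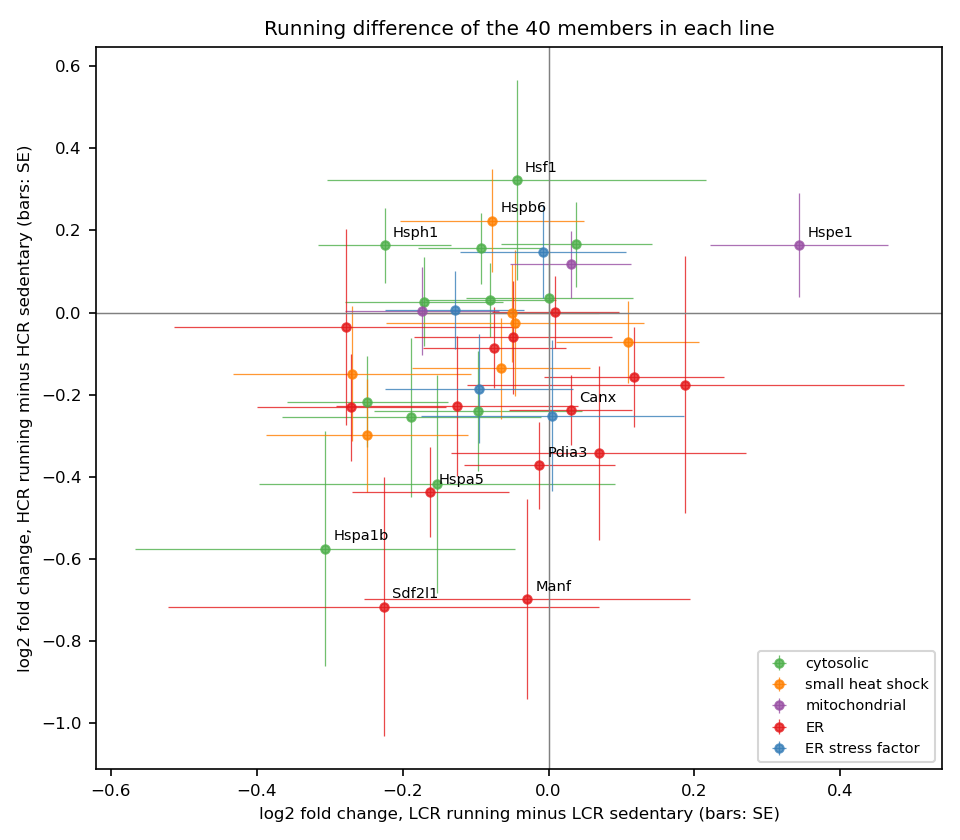
Log2 fold change of running against sedentary rats for the 40 members, with HCR on the y axis and LCR on the x axis, bars of 1 SE and colours by compartment. In both lines 20 members lie below 0 and 5 above 0, and 9 of the 14 ER members lie below 0 in both.

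The lines were set side by side by their responses to running. The test of the difference called 0 of 40 members and 0% of all genes with edgeR, and 0 with DESeq2 and voom. At an unadjusted p under 0.05 there were 4 members, 2 in each direction, against 5.88% of all genes. In the ER, 12 of 14 values were below 0, that is, lower in the HCR response than in the LCR response, with a median of -0.27 against -0.00 for all genes. Without the 2 libraries with conflicting titles the median was -0.20, with 11 of 14 below 0, and with them placed by their titles -0.11, with 9 of 14 below 0. The 4 smallest p-values belonged to Hsph1 (0.39, SE 0.13, adjusted p = 0.835), Pdia3 (-0.36, SE 0.15, adjusted p = 0.835), Canx (-0.27, SE 0.12, adjusted p = 0.836) and the neuron and muscle cochaperone Dnajb2 (0.25, SE 0.12, adjusted p = 0.844), all by edgeR's quasi-likelihood test. With the 2 libraries placed by their titles these values were 0.26, -0.22, -0.15 and 0.05 in the same order of genes. No difference between the lines in the response of an ER member passed.

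Without a wheel, 1 of the 40 members passed between the lines, a share close to that of all genes. Pdia6, a disulfide isomerase that works with BiP and binds the sensors IRE1 and PERK, was higher in HCR sedentary rats than in LCR sedentary rats. It ran from 42.5 over a median of 57.4 to 72.5 CPM in HCR sedentary rats and from 35.6 over 42.6 to 57.0 CPM in LCR sedentary rats. Of the HCR rats, 7 were above the LCR median and 4 above every LCR rat. The log2 fold change was 0.39 (SE 0.11, adjusted p = 0.0342, edgeR quasi-likelihood test), where 2.72% of all genes passed. The call was lost in 8 of 26 refits without a single rat, those without HCR sedentary 1, 5, 6 or 7 or LCR sedentary 3, 6, 7 or 8 (adjusted p up to 0.0866), and in fits with no filter on low counts (adjusted p = 0.0642) or only the sedentary rats (adjusted p = 0.0674).

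Cell markers gave these values between the sedentary lines. Macrophage markers were above 0 in 9 of 9 with 1 called, Folr2 (0.73, adjusted p = 0.00516, edgeR), and sums of 298 to 465 CPM in HCR sedentary rats and 227 to 361 CPM in LCR sedentary rats. Adipocyte markers were above 0 in 3 of 3, with sums of 122 to 204 CPM in HCR sedentary rats and 96.3 to 191 CPM in LCR sedentary rats. Fibroblast markers were above 0 in 6 of 7, with sums of 542 to 998 CPM in HCR sedentary rats and 480.0 to 849.8 CPM in LCR sedentary rats. Fast fibre markers were below 0 in 8 of 9, with sums of 2357 to 8872 CPM in HCR sedentary rats and 6651 to 12621 CPM in LCR sedentary rats. The part of these cells in the line differences of chaperones was not tested.

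Among runners Pdia6 was at 50.3, 51.0, 53.9, 51.3 and 51.1 CPM in HCR and at 46.7, 51.6, 39.98, 50.5 and 48.4 CPM in LCR. These ranges overlapped, and the log2 fold change between the running lines was 0.12 (adjusted p = 0.877, edgeR).

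Its relative Pdia3 was the next, at 113, 143 and 152 CPM as lowest, median and highest in HCR sedentary rats and 98.4, 109.9 and 142 CPM in LCR sedentary rats. All 8 HCR rats were above the LCR median, and the log2 fold change was 0.27 (SE 0.09, adjusted p = 0.0923, edgeR quasi-likelihood test). It passed under voom (adjusted p = 0.0495) and without LCR sedentary 5 (adjusted p = 0.0318). This comparison and the HCR running comparison share the HCR sedentary rats, in which Pdia3 was highest of the 4 groups. Pdia3 averaged 105 ± 17.4 CPM in HCR running rats, 113 ± 10.9 in LCR running rats, 136 ± 16.6 in HCR sedentary rats and 113 ± 13.04 in LCR sedentary rats.

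By compartment, 10 of 14 ER members were higher in HCR sedentary than in LCR sedentary rats (median 0.07). The same HCR sedentary rats are the reference of the HCR running comparison. Lower in HCR were 6 of 7 small heat shock members (median -0.11), 2 of 3 mitochondrial members and 3 of 4 ER stress factors. In the cytosol the sedentary HCR rats lay lower in 8 of 12 members (median -0.07). Hspa1a, the other inducible HSP70, had 15.8, 24.4 and 34.7 CPM as lowest, median and highest in HCR sedentary rats and 27.1, 33.0 and 43.5 CPM in LCR sedentary rats. Of the HCR rats 6 were below every LCR rat, and the log2 fold change was -0.46 (SE 0.15, adjusted p = 0.11, edgeR quasi-likelihood test). Hsph1 was narrow in HCR sedentary rats, at 96.2, 102 and 108 CPM as lowest, median and highest, against 101, 120.0 and 137 CPM in LCR sedentary rats. All 8 HCR rats were below the LCR median, a log2 difference of -0.23 (SE 0.08, adjusted p = 0.117, edgeR quasi-likelihood test). An unadjusted p under 0.05 was reached by 5 members, 3 higher and 2 lower in HCR, against 15.9% of all genes. No member had sedentary groups that did not overlap, against 0.586% of all genes. The member median was -0.03 and that of all genes 0.01.

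**Figure D3:**
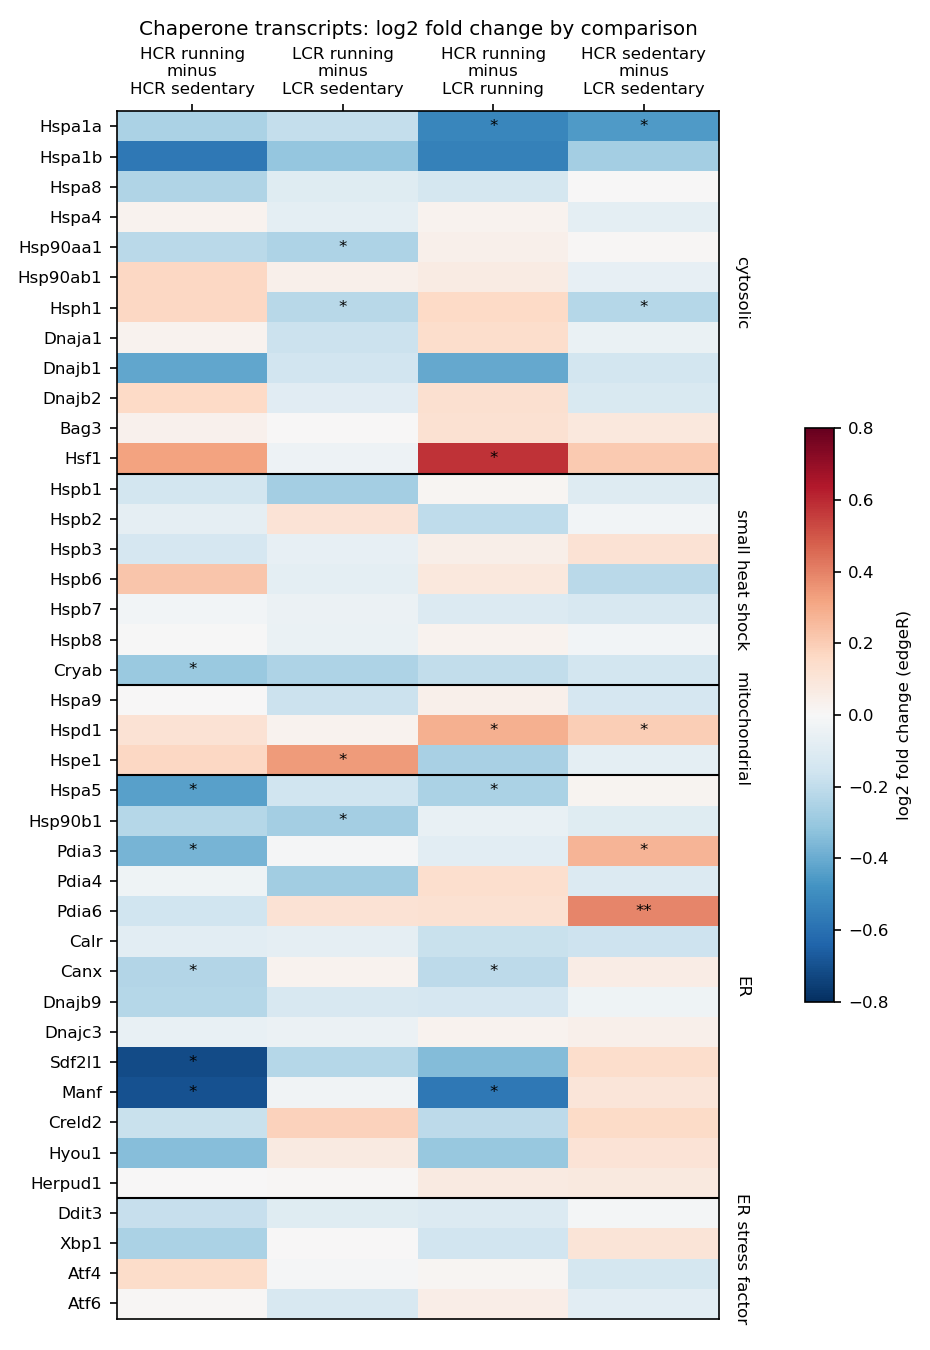
Log2 fold changes of the 40 members (rows, by compartment) in 4 comparisons (columns); red is higher and blue lower in the group named first. A single asterisk marks an unadjusted p under 0.05 and a double asterisk an adjusted p under 0.05, which is reached by Pdia6 between the sedentary lines and by no other member.

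Between the running lines 1 of 40 members had ranges that did not overlap, the mitochondrial chaperone Hspd1, a share close to the 1.91% of all genes. It encodes HSP60, the folding chamber of the mitochondrial matrix. It had 279, 276, 276, 275 and 298 CPM in HCR running rats and 238, 237, 237, 223 and 215 CPM in LCR running rats. The lowest HCR runner was above the highest LCR runner. The log2 fold change was 0.29 (SE 0.09, adjusted p = 0.198, edgeR quasi-likelihood test), which did not pass. It was 0.24 without the 2 libraries with conflicting titles (adjusted p = 0.551) and 0.11 with those placed by their titles (adjusted p = 0.997). In sedentary rats the line difference was 0.20 (adjusted p = 0.141, edgeR), at 217, 253 and 294 CPM as lowest, median and highest in HCR and 203, 218 and 264 CPM in LCR. RefSeq names 20 pseudogenes of Hspd1, so some of its reads may have been placed elsewhere.

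Its promoter partner did not share that order. Hspe1 had 96.0, 60.2, 80.9, 84.5 and 74.6 CPM in HCR running rats, against 78.2 to 116 CPM in LCR running rats (log2 fold change -0.26, adjusted p = 0.631, edgeR). The ranges overlapped, with 4 HCR runners below the LCR median and 2 below the lowest LCR runner. In HCR sedentary rats it ran from 59.8 over 68.9 to 88.5 CPM. Hspa9, mortalin, the HSP70 that pulls proteins into the matrix, had group means of 108 ± 11.7 CPM in HCR running rats, 105 ± 10.5 in LCR running rats, 108 ± 12.7 in HCR sedentary rats and 119 ± 18.2 in LCR sedentary rats. All 5 LCR runners were below the LCR sedentary median and 0 below its lowest rat (log2 fold change -0.17, adjusted p = 0.849, edgeR). Of the 8 HCR sedentary rats, 7 were below that median and 1 below every LCR sedentary rat.

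Across the running lines 0 members passed with edgeR, DESeq2 or voom, where edgeR called 0.626% of all genes. An unadjusted p under 0.05 was found in 6 members, 2 higher and 4 lower in HCR, against 8.58% of all genes. These numbers depended on the 2 libraries with conflicting titles. Without them 1 member had an unadjusted p under 0.05 and 35 of all genes were called, and with them placed by their titles 0 and 0, against 6 members and 63 genes here. Hspa1a was again lower, at 25.95, 21.7, 14.2, 24.8 and 16.4 CPM in HCR running rats and 31.5, 26.8, 21.4, 27.2 and 46.6 CPM in LCR running rats. Hspa1a thus differed by -0.52 on the log2 scale (SE 0.21, adjusted p = 0.395, edgeR). The 5 HCR runners were all below the LCR median, and the ranges overlapped. Without the 2 libraries with conflicting titles the difference was -0.30, and with them placed by their titles 0.056, on the other side of 0.

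Canx in LCR running rats was at 234, 250.1, 229, 263 and 219.9 CPM, so that 4 of the 5 HCR runners lay below the lowest of them (log2 fold change -0.21, SE 0.09, adjusted p = 0.499, edgeR). Manf in LCR running rats was even, at 13.6, 14.1, 17.4, 15.2 and 14.1 CPM (log2 fold change -0.57, SE 0.27, adjusted p = 0.545, edgeR). By the titles these differences were -0.09 for Canx and -0.25 for Manf. Fast fibre markers also differed between the running lines, with 8 of 9 below 0 and 3 called, and sums of 2429 to 4944 CPM in HCR running rats and 5480 to 12392 CPM in LCR running rats. Their part in the line differences of chaperones was not tested.

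**Figure D4:**
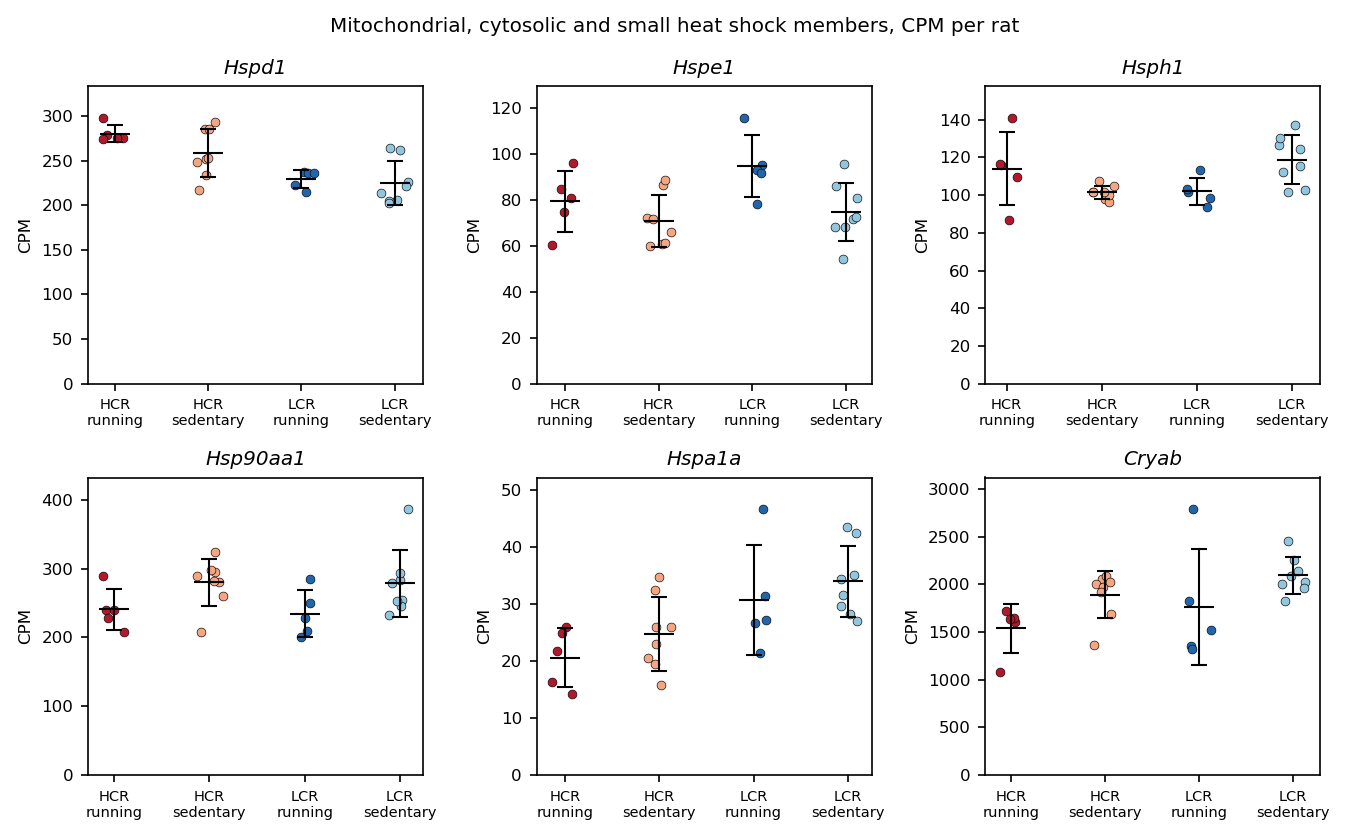
CPM (y axis, from 0) of 2 mitochondrial, 3 cytosolic and 1 small heat shock member in each rat, with groups along the x axis; points are rats, and bars are the mean and SD of 5 running or 8 sedentary rats. Hspd1 of HCR running rats (275 to 298 CPM) lies above Hspd1 of LCR running rats (215 to 238 CPM), and 1 LCR running rat stands high in Cryab at 2788 CPM.

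For several members no difference between the 4 groups passed, which does not show that their levels were equal. The abundant HSP90 of resting cells, Hsp90ab1, averaged 4843 ± 814 CPM in HCR running rats, 4629.6 ± 443 in LCR running rats, 4317 ± 526 in HCR sedentary rats and 4509 ± 337 in LCR sedentary rats. Bag3, the hub of filamin clearance, averaged 628 ± 130, 578 ± 120, 612 ± 72.4 and 577 ± 51.3 CPM in the same order of groups. Its partner Hspb8 averaged 720.1 ± 167, 706 ± 84.1, 719 ± 99.6 and 729.7 ± 105 CPM. In single runners Bag3 had 479, 523, 622, 779 and 736 CPM in HCR and 538, 499.7, 477, 599.5 and 776 CPM in LCR. Its lowest, median and highest sedentary values were 498, 626 and 719 CPM in HCR and 515, 579.8 and 682 CPM in LCR. Hspb8 had 615, 546, 692, 978 and 769.5 CPM in HCR running rats and 653, 587, 748, 742 and 798 CPM in LCR running rats. Both genes were highest in the same HCR runner, number 4, and in the same LCR runner, number 5. In neither line did the sedentary rat highest in Bag3 also stand highest in Hspb8. Sedentary rats had 611, 716 and 926 CPM of Hspb8 as lowest, median and highest in HCR and 572, 711 and 874 CPM in LCR. Adjusted p-values for Hsp90ab1, Bag3 and Hspb8 were between 0.529 and 1.00 in the comparisons of single groups (edgeR quasi-likelihood test).

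The constitutive HSP70 Hspa8 had 38.4, 43.9, 32.6, 32.3 and 33.7 CPM in HCR running rats, 40.2, 44.3, 42.9, 36.6 and 36.9 CPM in LCR running rats, and 33.3, 40.95 and 52.9 CPM as lowest, median and highest in HCR sedentary rats, against 26.2, 43.2 and 62.2 CPM in LCR sedentary rats. With 33 named pseudogenes in RefSeq its counts are uncertain, as are those of Hsp90ab1 (23), Hsp90aa1 (16) and, to a lesser extent, Dnaja1 (4). Dnajb1, the HSP40 that pairs with inducible HSP70, had 5.71, 11.4, 11.3, 3.31 and 7.15 CPM in HCR running rats and 10.3, 12.7, 13.3, 6.32 and 9.67 CPM in LCR running rats. Sedentary rats had 8.12, 10.4 and 15.8 CPM as lowest, median and highest in HCR and 6.25, 11.5 and 18.5 CPM in LCR, and the 4 groups overlapped. Hspa1b had 22.2, 17.5, 28.4, 22.1 and 26.4 CPM in LCR running rats and 17.8, 22.4 and 46.5 CPM as lowest, median and highest in LCR sedentary rats. The median count of 5 members, Dnajb1, Hsf1, Pdia4, Sdf2l1 and Creld2, was under 20 reads per library, so single values of these genes carry large counting error. Pdia4, a disulfide isomerase of the ER, is 1 of them, at 9.34, 9.76, 7.09, 9.94 and 7.15 CPM in HCR running rats and 4.34, 12.2, 8.11, 6.95 and 7.91 CPM in LCR running rats. In sedentary rats it had 5.45, 8.26 and 13.3 CPM as lowest, median and highest in HCR and 5.95, 9.54 and 12.3 CPM in LCR.

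The small heat shock proteins Hspb1, Hspb2, Hspb3, Hspb6 and Hspb7, which bind actin, desmin and titin in muscle, had log2 fold changes between -0.27 and 0.22 in the 4 comparisons of single groups, with no adjusted p under 0.332 (edgeR). Hspb2 had 171, 185, 164, 179.7 and 146 CPM in HCR running rats and 188, 211, 168, 189 and 222 CPM in LCR running rats. Sedentary rats had 138, 184 and 217 CPM as lowest, median and highest in HCR and 151, 186 and 217 CPM in LCR.

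Whether known partners vary together from rat to rat was tested for 9 pairs. The deviation of each of 26 rats from its group mean (log2 CPM, prior count 2) was correlated, with 100000 permutations within groups, 2-sided, and p-values adjusted over the 9 pairs. Genes read in the same library share its depth and make-up, so these are relations across rats and not shown to be direct.

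The transcription factor Atf4 and its target Ddit3 varied together, with Pearson's r = 0.64 (permutation p = 0.00133, adjusted 0.0120) and Spearman's rho = 0.63 (adjusted permutation p = 0.0153). Within groups r was 0.93 in LCR running rats, 0.74 in HCR sedentary rats, 0.88 in LCR sedentary rats and 0.00 in HCR running rats. Without the 2 rats farthest from the median of Atf4, r was 0.53 (permutation p = 0.0256), and the adjusted permutation p of 0.115 no longer passed. Atf4 had 583, 731, 826, 662 and 775 CPM in HCR running rats and 635, 642, 635, 716 and 906 CPM in LCR running rats. Sedentary rats had 495, 653 and 762 CPM of Atf4 as lowest, median and highest in HCR and 523, 711 and 829.8 CPM in LCR. Ddit3 had 77.9, 86.3, 78.7, 129 and 111 CPM in HCR running rats and 99.8, 91.0, 88.6, 95.4 and 145 CPM in LCR running rats. LCR running 5 was thus highest of its group in both genes. Sedentary rats had 89.1, 109.3 and 127 CPM of Ddit3 as lowest, median and highest in HCR and 85.1, 110.5 and 141 CPM in LCR.

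Cryab and Hspb2, neighbouring genes, had r = 0.52 (permutation p = 0.00499, adjusted 0.0225) and rho = 0.46 (adjusted permutation p = 0.106). Group by group, r was 0.92 in HCR sedentary rats, 0.73 in LCR running rats, 0.27 in LCR sedentary rats and 0.06 in HCR running rats. Without the 2 rats farthest from the median of Cryab, r was 0.55 (permutation p = 0.0107), slightly higher than with them, while the adjusted permutation p of 0.0967 no longer passed. Hspa5 and Hsp90b1, which share the ER stress element shown above, had r = 0.43 (permutation p = 0.0363, adjusted 0.109) and rho = 0.43 (adjusted permutation p = 0.106), which did not pass.

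The other 6 pairs did not pass by permutation. Bag3 and Hspb8 had r = 0.34 (adjusted 0.352), Hsp90aa1 and Hspa8 0.14, and Hspa5 and Pdia4 0.11. Hspd1 and Hspe1, which share a promoter region, had r = -0.21, Hspa1b and Dnajb1 -0.29, and Hspa1b and Hsph1 -0.23.

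**Figure D5:**
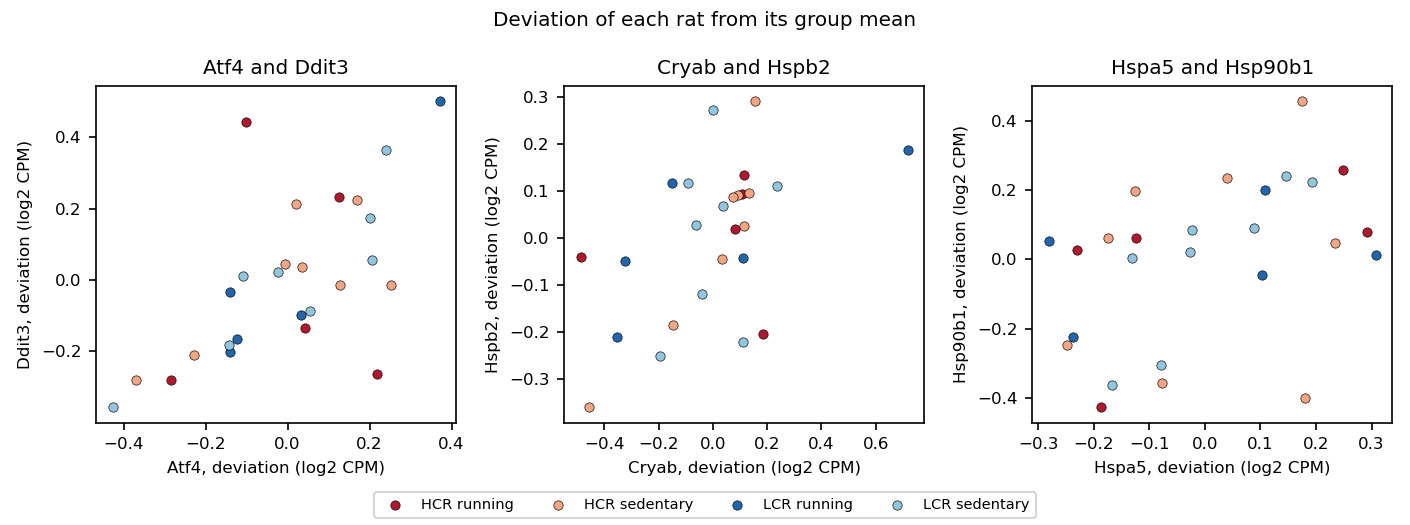
Deviation of each of 26 rats from its group mean on the log2 CPM scale for 3 pairs, with the gene named first on the x axis and points coloured by group. Pearson's r is 0.64 for Atf4 and Ddit3, 0.52 for Cryab and Hspb2, and 0.43 for Hspa5 and Hsp90b1.

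Other genes of the same pathways gave 3 calls. Of 25 cytosolic cochaperones and regulators tested, 1 was called between the sedentary lines (2.72% of all genes were), Hspa2, an HSP70 relative, which was lower in HCR (log2 fold change -0.59, SE 0.12, adjusted p = 0.00286, edgeR). Dnajb6, a cochaperone that holds back aggregation in muscle, rose with running averaged over the lines (0.25, SE 0.06, adjusted p = 0.0446, edgeR), also 1 of the 25, where 0.378% of all genes were called. Of 21 genes for ER folding and ER-associated degradation, 1 was called between the sedentary lines, Serpinh1, the collagen chaperone HSP47, higher in HCR sedentary rats (0.52, SE 0.13, adjusted p = 0.0245, edgeR). That list had 14 of 21 genes above 0 between the sedentary lines (median 0.13), and 13 of 21 below 0 between HCR running and HCR sedentary rats (median -0.08). None of 12 sensors and targets of the ATF4 and CHOP branch, 13 genes of the TRiC chaperonin and prefoldin, or 11 mitochondrial folding factors and proteases was called in any of the 6 comparisons by edgeR. In HCR running against HCR sedentary rats the PERK gene Eif2ak3 stood at -0.96 (SE 0.34, adjusted p = 0.212, edgeR), the CHOP target Trib3 at -1.05 (SE 0.40) and Ddit4 at 1.01 (SE 0.34), all at low counts. Serpinh1 stood at -0.44 (SE 0.15) in that comparison, and Trib3 at 0.94 (SE 0.33) in HCR sedentary against LCR sedentary rats. Both comparisons share the HCR sedentary rats.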

How the data were processed

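Soleus RNA of 26 rats was sequenced from the 3' end with oligo(dT) priming and single-end reads, per the labels' protocols. Values are raw counts per gene as deposited: whole numbers, not scaled by the authors. Named in the submitters' processing notes are FastQC, UMI-tools, cutadapt, STAR and featureCounts and the assembly mRatBN7.2. Collapse of identical molecules and use of strand are not given in the sources used here, so overlapping genes are uncertain. Of the table's columns, 0 belonged to no sample.

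Groups followed genotype and treatment. Counts were fitted with edgeR 4.0.16 in R 4.3.3 (TMM factors, filterByExpr with a minimum count of 10, robust quasi-likelihood F test, all 26 libraries in 1 fit of 4 group means), with Benjamini-Hochberg adjustment over 10064 genes at 0.05. Each SE was derived from the fold change and its F statistic (absolute log2 value over root F). CPM use TMM-scaled library sizes. The biological coefficient of variation was 0.156. The edgeR fit was tested on simulated data. Of 1.5-fold changes it recovered 31% to 49.5% in the comparisons of single groups, 69.5% for the average and 7.5% for the difference of responses. Alternatives were DESeq2 1.42.0, limma 3.58.1 voom with quality weights, RLE and upper-quartile factors, no filter, only the groups compared, replicate numbers as a block, the line in the title, and leaving out libraries. Libraries of 1 group did not agree within sampling noise (lowest chi-square per degree of freedom 2.17 over 76 pairs). P-values cover the spread between libraries, taken as separate rats. Promoter letters came from RefSeq tables of GRCr8, which were used for sequence and gene names only.

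The members, compartments and lists were chosen with earlier results of these data known. Members with full statistics in a comparison are those past 0.05 and, where fewer than 4 passed, those of smallest p up to 4. Values in each running rat, and the lowest, median and highest of sedentary rats, are given for members called anywhere and for the tested pairs. The same holds for the 4 of smallest p in the running comparison of each line, at least in that line. Other genes named with values were chosen after their values were seen. Of 164 genes of the added pathway and marker lists, 2 (Vbp1 and Mylpf) matched no row.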

Additional observations from a re-analysis of the deposited data

Results flagged for a closer look

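In 9 of 160 sets of values (40 members in 4 groups, 5.62%), 1 rat stood far from the rest of its group by Dixon's criterion on log2 CPM, and chance gives about 1 in 20. Hsp90aa1 was high in LCR sedentary 7 at 386 CPM, with the next rat at 294 CPM. Hspb3 was high in LCR sedentary 3 at 89.5 CPM (next 69.7 CPM), and Pdia3 in LCR sedentary 5 at 142 CPM (next 117 CPM). Creld2 was low in HCR sedentary 3 at 2.78 CPM (next 4.59 CPM), on few counts.

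Among runners, Cryab was low in HCR running 3 at 1082 CPM (next 1606 CPM), and Dnaja1 was low in HCR running 4 at 82.8 CPM (next 101 CPM). Hspd1 was high in HCR running 5 at 298 CPM (next 279 CPM), and Pdia6 in HCR running 3 at 53.9 CPM (next 51.3 CPM), both in very narrow groups. Ddit3 was high in LCR running 5 at 145 CPM (next 99.8 CPM), the rat that also stood highest of its group in Atf4 and Cryab.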

How the results depend on the processing

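The number of members called depended on the fit for 3 comparisons. Between HCR running and HCR sedentary rats it was 1 with DESeq2 and 1 with no low-count filter, where Hspa5 passed (adjusted p = 0.0207 and 0.0415). Of all genes these fits called 79 and 13, against 10 in the fit reported above. Averaged over the lines it was 1 with DESeq2, with no filter and with voom, again Hspa5, and 1 without the 2 libraries with conflicting titles (Cryab). In that order, these fits called 80, 44, 50 and 43 of all genes, against 38 in the fit reported above. Between the sedentary lines it was 2 with voom (Pdia6 and Pdia3), and 0 with no filter and with only the groups compared. Of all genes these fits called 363, 265 and 223, against 274 in the fit reported above. Hspa1a between the running lines was 0.056 with the line of the title, against -0.52. Without the 2 farthest rats the correlation was 0.53 for Atf4 and Ddit3 and 0.55 for Cryab and Hspb2, no longer past the threshold. The cause of these changes was not tested.

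Leaving out 1 library at a time gave 0 to 1 calls in HCR running rats, 0 to 0 in LCR running rats, 0 to 2 for the average, 0 to 2 between the sedentary lines, 0 to 0 between the running lines and 0 to 0 for the difference of responses. The share of all genes called in these refits is not given here, so these counts have no background beside them. The member median ran from -0.13 to -0.06 in HCR running rats, -0.10 to -0.05 in LCR running rats, -0.11 to -0.07 for the average, -0.07 to -0.02 between the sedentary lines, -0.11 to 0.027 between the running lines and -0.06 to 0.04 for the responses. Same-numbered libraries did not deviate together (r over 0.1 in 2 of 23 pairs). With the number as a replicate block 1 member was called, Pdia6 between the sedentary lines (0.40, adjusted p = 0.0307), among 253 genes called in all. The block changed no other call of a member. Depth limits Dnajb1, Hsf1, Pdia4, Sdf2l1 and Creld2 most.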
